A study of Rattus norvegicus with 6 samples.

Results

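The genes described here are the named Zfp zinc finger genes of the rat hippocampus after acute noise. They were taken as every transcript cluster of the array that carries a single gene symbol made of Zfp and a number, without Zfp36, Zfp36l1, Zfp36l2 and Zfp36l3, which belong to a different family of RNA-binding proteins. Where a symbol had several clusters, the brightest was used. This gave 259 genes of the 20155 genes with a single symbol, and all 259 carry the words zinc finger in their description. A further 17 clusters with several symbols, among them a Zfp symbol, were left out.

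Most of these genes encode C2H2 zinc finger proteins, in which a row of fingers, each folded around a zinc ion, reads a stretch of DNA. Many also carry a KRAB domain, which recruits the corepressor Trim28 and, through it, the histone methyltransferase Setdb1 and histone deacetylases, so that chromatin at the bound site is silenced. KRAB zinc finger genes lie in clusters of related copies, silence transposable elements in early development and remain expressed in adult tissues, the brain included, where the targets of most of them are not known.

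The data came from Affymetrix Rat Gene 2.0 ST arrays of hippocampal RNA, with 3 arrays from control rats and 3 from noise rats, all female Sprague–Dawley rats of 3 weeks. On each of 3 days the noise group heard white noise at 115 dB SPL for 4 hours, and the control group sat in the same kind of chamber without it. Array numbers follow the labels, which give 1, 2 and 6 to the controls and 2, 3 and 4 to the noise group. Each carried RNA pooled from 2 rats, so the spread given here is that between pools. Rats of both groups had been anesthetized for a hearing test before sacrifice. The labels give the tissue as hippocampus taken right after the exposure, whereas the methods place the harvest some hours after the hearing test and speak of dorsal CA3, found with an atlas, and of samples from the neighbouring CA2 and dentate gyrus, so the exact tissue and time are not settled. All values are on the log2 scale made by the Robust Multi-Array Average (RMA). A gene was called when its fold change was at least 1.5 at an unadjusted p of at most 0.05 in limma, whose linear models borrow strength across genes to estimate each gene's variance.

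Several markers of tissue that borders the hippocampus were lower on the noise arrays. At these thresholds 0.595% of all genes were lower and 0.288% higher. Of 8 choroid plexus markers, 7 were lower. Their list mean was 8.02, 7.35 and 5.69 on control arrays 1, 2 and 6 against 4.53 to 5.12 on the noise arrays. Of 5 thalamus markers 3 were lower (list means 6.31 to 6.93 on the control and 6.08 to 6.26 on the noise arrays). Of 5 medial habenula markers 2 were lower (5.24 to 5.45 on the control and 4.73 to 5.05 on the noise arrays). Among the markers of these lists that did not pass, the log2 fold change was positive for Rgs16 of the thalamus (0.36) and Tac3 of the habenula (0.17). It was negative for Folr1, Tcf7l2, Chrnb4 and Pou4f1. The 7 hippocampal and neuronal markers had list means of 9.62 to 9.88, with the dimmest, Grik4, at 6.74 to 7.09. None of them passed, nor did any of the 4 astrocyte, 5 oligodendrocyte or 5 microglia markers measured. The part of bordering tissue in the results below was not tested; its marker values are those given here. In bulk RNA, fewer cells of a type and less RNA per cell cannot be told apart.

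The Zfp genes were shifted towards lower signal in the noise group. At the thresholds 11 of the 259 genes (4.25%) were lower, where 0.595% of all genes were, and none was higher, where 0.288% of all genes were. At the p threshold alone 38 genes (14.7%) were lower against 4.91% of all genes, and 4 genes (1.54%) were higher against 4.32%. In 56 Zfp genes (21.6%) every noise array lay below every control array, compared with 8.87% of all genes, and in 12 (4.63%) every noise array lay above, compared with 8.37%.

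The shift was small for most genes. The log2 fold change was below 0 in 176 Zfp genes (68.0%) and in 49.6% of all genes. Its median was -0.09 over the Zfp genes, with quartiles of -0.21 and 0.05, and 0.00 over all genes, with quartiles of -0.11 and 0.11. The largest decrease was -1.02 and the largest increase 0.42, and 202 genes lay within 1.2-fold in either direction. After Benjamini-Hochberg adjustment over all clusters in limma, none of the 259 genes passed an adjusted p of 0.05, which 3 genes of the array (0.0149%) did, and the lowest adjusted p of a Zfp gene was 0.27. With 3 arrays against 3, an exact two-sided permutation test of a single gene cannot go below 0.1.

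**Figure D1:**
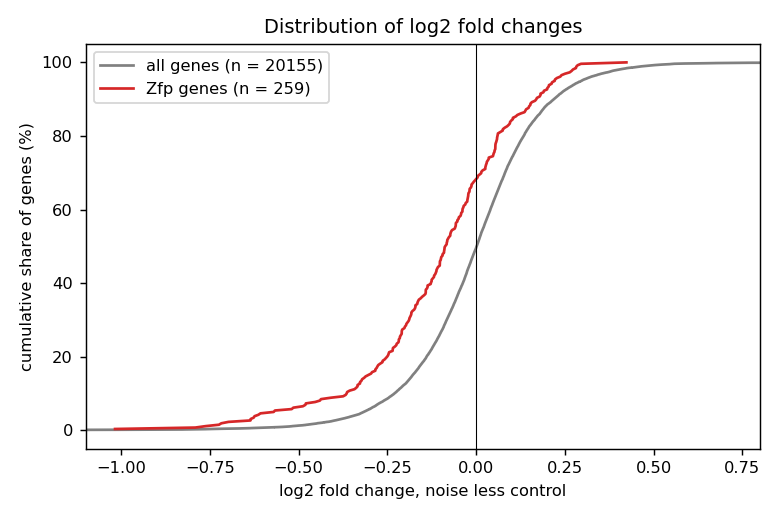
Cumulative share of genes (percent) against the log2 fold change, noise less control, for the 259 Zfp genes (red) and all 20155 genes with a single symbol (grey). The red curve lies to the left of the grey curve over most of the range, and 68.0% of Zfp genes against 49.6% of all genes lie below 0.

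The shift was visible on each array. Each gene's deviation from its own mean over the 6 arrays had a median of 0.04 to 0.05 on the control arrays. On noise arrays 2, 3 and 4 it was -0.03, -0.06 and -0.03. Over all genes this median stayed between -0.01 and 0.01 on every array. The 3 control medians of the Zfp genes thus lay above 0 and the 3 noise medians below, with no overlap between the groups.

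**Figure D2:**
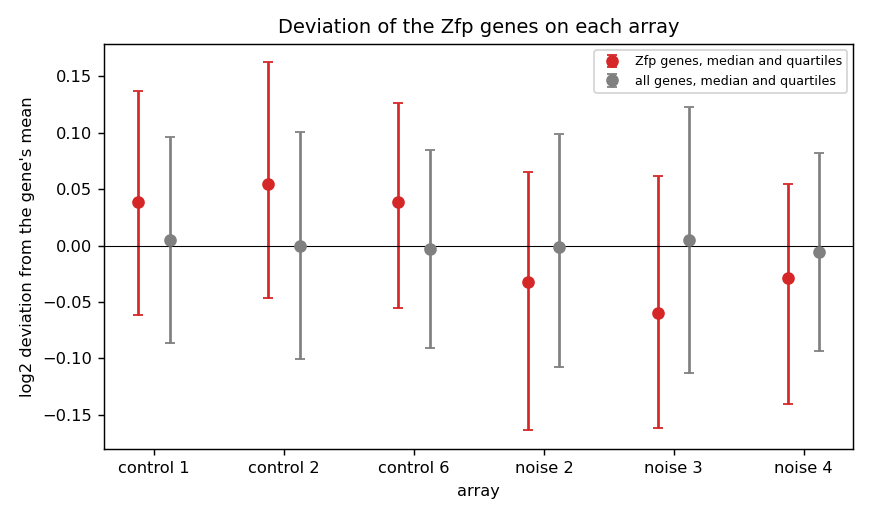
Log2 deviation of each gene from its mean over the 6 arrays, by array, as the median (point) and quartiles (bars), for the Zfp genes (red) and all genes (grey). The Zfp medians are 0.04 to 0.05 on the control arrays and -0.06 to -0.03 on the noise arrays, while the medians of all genes stay between -0.01 and 0.01.

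Zfp248, a KRAB zinc finger gene known chiefly from the human genome, showed the largest decrease. In the order of array numbers, its log2 values were 5.40, 5.57 and 5.56 for the controls, while the noise arrays read 4.20, 4.46 and 4.82. All 3 noise arrays lay below all 3 control arrays, with noise array 4 the nearest to them. The log2 fold change was -1.02 ± 0.16 (SE), 2.02-fold lower, with a limma adjusted p of 0.27. Zfp667, also called Mipu1, is a KRAB repressor described from the rat heart after ischemia. Its values were 5.71, 5.66 and 5.77 on the control arrays and 4.88, 4.71 and 5.26 on the noise arrays, again without overlap, and it was 1.70-fold lower (log2 fold change -0.76 ± 0.15 SE, limma adjusted p = 0.30).

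The promoters of these 2 genes are shown because both genes passed whichever array was left out. Zfp53 passed in the same way, but no promoter was available for it. Shared regulation of these genes was not tested. They are the 250 bases before the start of transcription in RefSeq (GRCr8), at chr4:153302107-153302356 for Zfp248 and chr1:76655134-76655383 for Zfp667, both on the minus strand. Capitals mark the GC box, GGGCGG, or its reverse complement.
Zfp248: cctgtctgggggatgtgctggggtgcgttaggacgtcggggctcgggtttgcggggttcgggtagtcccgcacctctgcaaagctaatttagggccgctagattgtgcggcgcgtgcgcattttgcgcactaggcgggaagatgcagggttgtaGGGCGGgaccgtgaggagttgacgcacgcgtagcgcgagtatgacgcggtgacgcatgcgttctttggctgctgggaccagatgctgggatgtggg
Zfp667: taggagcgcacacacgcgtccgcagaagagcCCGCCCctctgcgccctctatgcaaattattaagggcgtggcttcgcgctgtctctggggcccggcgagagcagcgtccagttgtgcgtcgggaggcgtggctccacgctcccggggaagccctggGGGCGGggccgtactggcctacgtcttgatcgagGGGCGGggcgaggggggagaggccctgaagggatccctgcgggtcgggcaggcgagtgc
The GC box stood at a single place in the first and at 3 places in the second.

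Promoters of Zfp genes had a higher median CpG ratio than all promoters. RefSeq held 268 promoters for 208 Zfp genes, each taken from 250 bases before to 50 bases after the start. Their median GC content was 56.0% and their median ratio of observed to expected CpG 0.69, against 51.7% and 0.39 over all 33469 promoters. On either strand the GC box GGGCGG occurred in 41.4% of Zfp promoters and 33.1% of all promoters, and the TATA box TATAAA in 7.46% and 14.2%. The glucocorticoid half-site AGAACA occurred in 16.0% and 20.7%, the AP-1 site TGACTCA or TGAGTCA in 3.36% and 4.63%, the E-box CACGTG in 7.09% and 6.42% and the cAMP response element TGACGTCA in 2.24% and 1.83%. For the called genes there were 7 promoters of 6 genes. Of these, 3 held a GC box (Zfp248, Zfp667 and Zfp52), 1 an AP-1 site (Zfp455) and none any of the other motifs. In the larger set of Zfp genes lower at the p threshold, with 43 promoters of 28 genes, the GC box was in 27.9%, a smaller share than among all Zfp promoters or all promoters. Over the 7 promoters of called genes the median GC content was 56.0% and the median CpG ratio 0.62, with Zfp192 (0.34) and a promoter of Zfp27 (0.38) below the median of all promoters.

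Zfp27, also a C2H2 zinc finger gene, had values of 5.77, 6.005 and 6.01 on the control arrays and 5.14, 5.53 and 5.23 on the noise arrays. The groups did not overlap, and it was 1.54-fold lower (log2 fold change -0.63 ± 0.13 SE, limma adjusted p = 0.33). Zfp192, which RefSeq names Zkscan8 and which carries a SCAN domain beside its KRAB domain, had nearly equal control values of 6.19, 6.22 and 6.21 but spread noise values of 5.49, 5.22 and 6.03. Noise array 4 lay just below the controls. The log2 fold change was -0.62 ± 0.19 (SE, limma adjusted p = 0.39), and a dimmer cluster of the same gene also passed, at -0.72. These 2 genes and Zfp667 were the called genes whose mean signal lay above the median of all cluster values, 5.05.

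The other 8 called genes, Zfp248 among them, had a mean below that median. For Zfp248 and Zfp626 this holds only with the noise arrays included, since their control means were 5.51 and 5.28. Zfp52 and Zfp53, KRAB zinc finger genes described in mouse, are near neighbours in the rat genome, with 2 genes between them. Zfp53 read 2.98, 2.85 and 2.78 on the control arrays and 2.51, 2.02 and 1.99 on the noise arrays, a log2 fold change of -0.70 ± 0.16 (SE). Zfp52 read 3.49, 3.59 and 3.37 against 2.44, 2.74 and 3.12, a log2 fold change of -0.72 ± 0.17 (SE). In neither gene did the groups overlap, although both were among the 5 dimmest of the 259 genes, and whether their signal exceeded background was not assessed. Zfp51, separated by 3 genes from Zfp53, did not pass (-0.18 ± 0.11 SE) and was the dimmest of all, with values from 2.17 to 2.58.

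Zfp780b-ps1 is named as a pseudogene of Zfp780b. It read 3.88, 4.24 and 3.96 on the control arrays and 3.41, 3.38 and 3.37 on the noise arrays, with no overlap and a log2 fold change of -0.64 ± 0.12 (SE). Zfp780b itself had a similar fold change of -0.72 but did not reach the p threshold. Its noise values of 2.49, 4.34 and 3.45 ran from below to above the controls, which lay between 3.96 and 4.30. Similar copies of this kind can share probes on the array, and how far they do was not tested.

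For the remaining called genes, the spread among arrays was closer to the size of the difference. Zfp626 (-0.61 ± 0.19 SE) and Zfp647 (-0.63 ± 0.21 SE) did not overlap between groups. Zfp30, a gene described in mouse as a regulator of the chemokine Cxcl1 in the airway, read 4.80, 4.91 and 4.58 on the control arrays and 3.72, 4.01 and 4.72 on the noise arrays. Noise array 4 thus lay among the controls. Zfp455 (-0.79 ± 0.32 SE) also overlapped, since control array 2 (3.71) lay below noise arrays 2 and 4 (3.76 and 3.81). Among the 11 called genes noise array 4 was the highest of the noise arrays in 7.

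**Figure D3:**
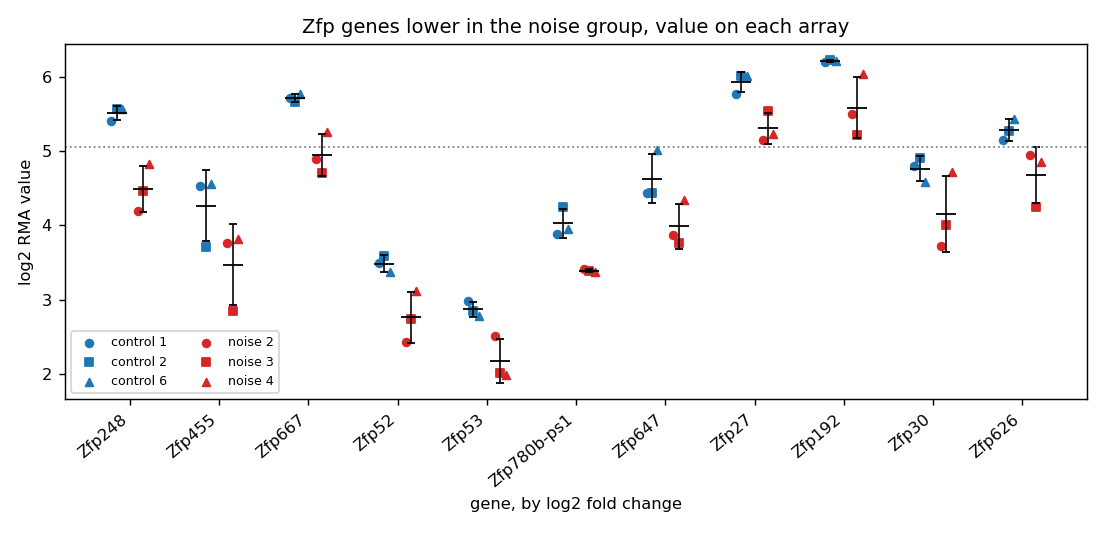
Log2 RMA value of the 11 called Zfp genes on each control (blue) and noise (red) array, ordered by log2 fold change, with the group mean and SD in black and the median of all cluster values (5.05) as a dotted line. The groups do not overlap in 9 of the 11 genes, which the calling rule itself favours, and 8 genes have a mean below the dotted line. Among all genes every noise array lay below every control array in 8.87%.

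The mean of the called genes, which small spread within a group helps to select, was 4.76, 4.77 and 4.84 for control arrays 1, 2 and 6. On noise arrays 2, 3 and 4 it was 4.03, 3.90 and 4.32. The choroid plexus means of the same arrays are given above, and the part of that tissue in the called genes was not tested. When control arrays 1 and 2 were both left out, an alternative chosen after the data were seen, 9 Zfp genes (3.47%) were lower, as were 0.769% of all genes in that fit. Of the 11 called genes 6 were among these, namely Zfp248, Zfp667, Zfp27, Zfp626, Zfp647 and Zfp455, and Zfp105, Zfp879 and Zfp94 were added. The lone control array was then assumed to vary like the noise arrays.

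The counts depended on single noise arrays. Without noise array 2 the number of lower genes was 7 (2.70%, with 0.576% of all genes lower in that fit), without noise array 3 it was 9 (3.47%, all genes 0.645%) and without noise array 4 it was 15 (5.79%, all genes 0.958%). Without control array 1, 2 or 6 it was 11, 11 or 10, and the share of all genes was 0.605%, 0.655% or 1.03%. Zfp248, Zfp667 and Zfp53 passed whichever of the 6 arrays was left out. By signal, 3 of the 191 Zfp genes at or above the median cluster (1.57%) were lower, against 0.508% of all genes there, and 8 of the 68 dimmer ones (11.8%), against 0.723%. The mean signal behind this split includes the noise arrays, so a decrease itself moves a gene towards the dimmer set. The median log2 fold change was -0.07 in the brighter and -0.13 in the dimmer Zfp genes.

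**Figure D4:**
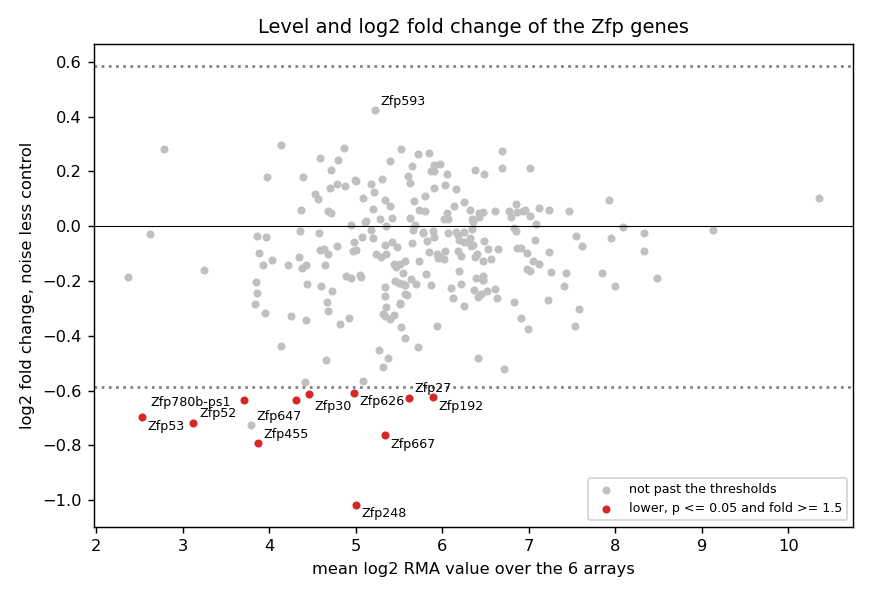
Log2 fold change, noise less control, of each of the 259 Zfp genes against its mean log2 RMA value over the 6 arrays. Red points are the 11 called genes, labelled with Zfp593, and dotted lines mark the 1.5-fold threshold. The called genes have mean values below 6, and no gene reaches the upper line.

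Several genes were lower at the p threshold but short of the fold threshold. Zfp386 read 6.97, 7.03 and 6.94 on the control arrays and 6.46, 6.41 and 6.50 on the noise arrays. The arrays of each group lay close together and the groups were far apart relative to this spread. The gene was 1.43-fold lower (log2 fold change -0.52 ± 0.09 SE, limma adjusted p = 0.28), which was the second smallest p among the Zfp genes. Zfp583 (-0.57 ± 0.14 SE) and Zfp94 (-0.57 ± 0.15 SE) were 1.48-fold lower, and Zfp799 (-0.44 ± 0.10 SE) and Zfp507 (-0.41 ± 0.10 SE) were 1.36-fold and 1.33-fold lower. In each of these 5 genes every noise array lay below every control array, which held for 21.6% of Zfp genes and 8.87% of all genes. For Zfp945 the brighter cluster did not pass (-0.10 ± 0.15 SE), whereas a dimmer cluster of the gene did (-0.92 ± 0.25 SE).

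Of the Zfp genes with higher signal in the noise group, 4 reached the p threshold and none passed the fold threshold as well. Zfp593, a nucleolar protein of ribosome biogenesis, read 5.16, 5.12 and 4.77 on the control arrays and 5.42, 5.62 and 5.27 on the noise arrays, without overlap (log2 fold change 0.42 ± 0.15 SE, limma adjusted p = 0.43). Zfp710 (0.29 ± 0.11 SE), Zfp330, also a nucleolar protein (0.27 ± 0.11 SE), and Zfp494 (0.24 ± 0.10 SE) were the other genes higher at the p threshold. Zfp384 was higher on every noise array (0.21 ± 0.10 SE) with a limma p of 0.058. Without control arrays 1 and 2, Zfp593 alone passed in this direction, at 0.67.

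Zfp-named proteins with roles other than sequence-specific repression included both nucleolar genes above. Of 17 listed genes 16 had a cluster with a single symbol, and Zfp207 was left out because its cluster also carries Mir632. Of the 16, 2 were higher (Zfp593 and Zfp330) and none lower at the p threshold, where 4.32% and 4.91% of all genes were. None was called, with 0.595% of all genes called lower and 0.288% higher. Their median log2 fold change was 0.00. Zfp638, which in human cells silences unintegrated retroviral DNA, had -0.22 ± 0.09 (SE) and Zfp622, a factor of ribosome biogenesis, 0.17. Zfp365, a protein that binds DISC1, read 8.60, 8.65 and 8.48 on the control arrays and 8.37, 8.40 and 8.39 on the noise arrays, lower on every noise array but short of the p threshold (-0.19 ± 0.09 SE). Zfp106, an RNA-binding protein, had -0.09 ± 0.10 (SE).

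Among 25 listed developmental and chromatin regulators 24 were measured, none was called, and 2 were lower at the p threshold (all genes 4.91%), with a median log2 fold change of -0.07. These were Zfp110 (-0.36 ± 0.11 SE), which in mouse binds the p75 neurotrophin receptor, and Zfp57 (-0.23 ± 0.09 SE), the KRAB protein that maintains imprinting marks in mouse and human. Zfp57 read 6.75, 6.76 and 6.67 on the control arrays and 6.52, 6.57 and 6.41 on the noise arrays. Zfp354a, cloned from rat kidney as Kid-1 (-0.33 ± 0.17 SE), Zfp423, a partner of Ebf factors (-0.20), and Zfp42, the stem cell factor Rex1 (0.30 ± 0.15 SE), did not pass.

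The brightest signals among the 259 genes differed little between groups. Signals of different probe sets do not measure relative amounts of RNA, so this order is one of array signal. Zfp238, which RefSeq names Zbtb18 and which represses transcription in developing cortical neurons in mouse, was the brightest, at 10.30 ± 0.09 (SD, n = 3) in the control group and 10.41 ± 0.13 (SD, n = 3) in the noise group. Zfp91, a ubiquitin ligase, followed at 9.14 ± 0.07 and 9.12 ± 0.04 (SD, n = 3 each), then Zfp365, and then Zfp260 (8.34 ± 0.01 and 8.32 ± 0.16, SD, n = 3 each) and Zfp106 (8.37 ± 0.03 and 8.28 ± 0.13, SD, n = 3 each). In all but Zfp365 the groups overlapped. Only 6 Zfp genes had a mean of at least 8, 163 lay between 5 and 7 and 18 below 4. At the lower end, with Zfp51, Zfp52 and Zfp53, stood Zfp353 (2.63) and Zfp352 (2.78), the latter known from the early mouse embryo.

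The partners of KRAB zinc finger proteins were measured through a list of 36 cofactors, of which 35 had a cluster. None was called in either direction, with 0.595% of all genes called lower. At the p threshold 4 (11.4%) were lower, against 4.91% of all genes, and none was higher, and the median log2 fold change was -0.03. Trim28, the corepressor itself, had -0.05 ± 0.11 (SE) and Setdb1 -0.13 ± 0.11 (SE). The 4 lower genes were Fam208a (-0.43 ± 0.10 SE), the TASOR subunit of the HUSH silencing complex, Morc2 (-0.32 ± 0.10 SE), an ATPase that works with that complex, Suv39h2 (-0.34 ± 0.14 SE), an H3K9 methyltransferase, and Dnmt3b (-0.23 ± 0.09 SE), a DNA methyltransferase. The deacetylase Hdac1 (-0.24 ± 0.11 SE) and Morc3 (-0.23 ± 0.12 SE) did not pass.

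Other zinc finger genes of the array also had medians below 0. The 62 genes named Znf, Zscan, Zkscan or Zbtb held no call, with 8 lower (12.9%) and 2 higher (3.23%) at the p threshold, 43 below 0 and a median log2 fold change of -0.09. Of 58 zinc finger genes under provisional LOC or RGD symbols, 8 (13.8%) were lower at the thresholds and none higher, with 15 (25.9%) lower at the p threshold, 46 below 0 and a median of -0.18. Over all genes 0.595% were lower at the thresholds, and 4.91% were lower and 4.32% higher at the p threshold. The difference between these sets and the Zfp genes was not tested.

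Position in the genome was read from RefSeq gene order, in which 254 Zfp symbols were found by symbol or synonym. As 2 of them led to the same gene, 253 genes were placed. Runs of at least 5 Zfp genes with steps of at most 10 genes held 38 of them in 6 runs. Of these 38, 2 were called and 12 were lower at the p threshold, with a median log2 fold change of -0.11. Of the 215 outside the runs 7 were called and 24 were lower at the p threshold, with a median of -0.08. As a share of all genes, 0.595% were called lower and 4.91% were lower at the p threshold. The called genes Zfp30 and Zfp626 were not among the placed genes, so they count in neither group. The run of Zfp28, Zfp583, Zfp667, Zfp444 and Zfp787 had the lowest median, -0.28, with Zfp28 (-0.28), Zfp583 and Zfp667 lower at the p threshold. In the longest run, from Zfp84 to Zfp146 and including Zfp27, 8 of 10 genes were below 0 (median -0.17). The run of Zfp786, Zfp398, Zfp282, Zfp212, Zfp956, Zfp777 and Zfp746 lay on the other side, with 1 of 7 genes below 0 and a median of 0.15.

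The nearest Zfp neighbours of called genes were also below 0, as were 68.0% of all Zfp genes, and few passed. Zfp583 is the next gene to Zfp667, and Zfp420 (-0.49 ± 0.15 SE) the next to Zfp27. Zfp59, beside Zfp780b-ps1 with 1 gene between, had -0.31 ± 0.16 (SE), Zfp9 beside Zfp248 -0.25 ± 0.19 (SE), Zfp251 near Zfp647 -0.22 ± 0.12 (SE), Zfp444 near Zfp667 -0.21 ± 0.13 (SE), Zfp84 near Zfp27 -0.23 ± 0.13 (SE) and Zfp458 near Zfp455 -0.15 ± 0.16 (SE). The neighbours at the p threshold were Zfp583 and Zfp420, beside the pair of called genes Zfp52 and Zfp53.

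Outside the 259 Zfp genes, the profiles over the 6 arrays most like the mean of the 11 called genes were those of Evi2b (Pearson's r = 0.998), RGD1308601 (0.996), Gabpb2 (0.995), Setmar (0.995) and Gpr139 (0.992). These coefficients describe 6 arrays in separate groups and carry no test. Evi2b read 5.60, 5.64 and 5.66 on the control arrays and 4.76, 4.65 and 5.16 on the noise arrays, and Gabpb2, a subunit of the GA-binding transcription factor, 5.51, 5.49 and 5.51 against 5.26, 5.18 and 5.35. In both, as in the mean of the called genes, noise array 3 was the lowest and noise array 4 the highest of the noise arrays. Both genes were chosen by their likeness to that mean, so this shared order follows from the choice.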

How the data were processed

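Hippocampal RNA of 6 pools of 2 rats was hybridized to 6 arrays. The authors summarized the scans with RMA in GeneSpring GX at default settings and deposited log2 values, which were used as they stand. The genome build behind the clusters is not given in the sources used here. The deposited table also holds the authors' fold change, log ratio and p-value for each cluster and an annotation block, none of which was used. Columns were matched to samples by title.

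All 29489 clusters were fitted with lmFit and eBayes (limma 3.58.1, R 4.3.3) on the 6 arrays with group as the only term, without a filter, and p-values were adjusted by Benjamini-Hochberg over all clusters. The step was tested on simulated data. The fold threshold of 1.5 and the p threshold of 0.05 follow the study's methods. Promoter sequences and gene order came from RefSeq (GRCr8). Nothing says that pools are independent beyond holding different rats. The p-values set each group difference against the spread between pools and treat the pools as independent.

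The genes and lists were chosen with earlier results of these data known. Genes were named by a rule: 5 genes given as marks of the set (Zfp248, Zfp667, Zfp386, Zfp27 and Zfp53, of which 4 were called), genes in the study's tables, called genes, the 5 smallest p-values and 5 largest separated changes in each direction, the 5 brightest and dimmest, up to 6 of each list by size of change, neighbours of called genes and the 5 most alike profiles. Zfp105, Zfp879, Zfp507, Zfp799 and Zfp94 and members of runs were named after their values were seen. Alternatives were the series matrix, another quantile normalization, median centring, an intensity trend with robust variance, array weights, a filter on dim clusters, the methods' t-test, Welch's version, the mean of a symbol's clusters, clusters with several symbols, other thresholds and leaving out each array.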

Additional observations from a re-analysis of the deposited data

How the results depend on the processing

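The count of 11 lower Zfp genes, the same genes, was kept with the series matrix values, quantile normalization, median centring, the intensity trend with robust variance, and the mean of a symbol's clusters, and was 11 of 276 with several-symbol clusters added. It was 3 of the 191 genes above the filter on dim clusters (1.57%, all genes 0.525%; median log2 fold change -0.072), 6 with the methods' t-test (2.32%, all genes 0.362%) and 5 with Welch's version (1.93%, all genes 0.283%). A fold threshold of 1.2 gave 36 lower (13.9%, all genes 4.33%) and 3 higher (1.16%, all genes 3.77%) Zfp genes and 3 lower cofactors, and an adjusted p of 0.05 gave 0. Leaving out single arrays gave 7 to 15 lower genes and medians of -0.093 to -0.066. Without control arrays 1 and 2, 1 gene was higher (0.386%, all genes 0.655%). The causes of these differences were not tested, other than that the filter, the 1.2-fold threshold and the left-out arrays change by construction which genes and arrays are counted.

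At the fold and p thresholds Zfp667 passed under every alternative fit. Zfp248 passed under all in which it was kept. The dim filter, which uses the mean over control and noise arrays, removed it. The t-test lost Zfp192, Zfp626, Zfp30, Zfp647 and Zfp455, and Welch's version also Zfp52. Without noise array 2, Zfp192, Zfp27, Zfp30, Zfp52 and Zfp647 were lost, without noise array 3 Zfp192, Zfp30, Zfp455, Zfp626 and Zfp647, without control array 1 Zfp30 and Zfp455, without control array 2 Zfp30 and Zfp780b-ps1, and without control array 6 Zfp455, Zfp626 and Zfp647. Array weights lost Zfp626. The uncalled genes Zfp353, Zfp91 and Zfp260, all near 0, changed sign. Without single arrays they ran from -0.16 to 0.14, from -0.045 to 0.024 and from -0.0702 to 0.068, with values above 0 of 0.14 and 0.00096 for Zfp353 without control array 2 and noise array 4, and of 0.024 and 0.0031 for Zfp91 without control array 2 and noise array 3. Zfp353 was at 0.0035 with array weights, and without control arrays 1 and 2 Zfp353 and Zfp91 were at 0.0501 and 0.0504.

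No paired analysis was made, since neither the labels nor the methods describe a pairing of control and noise pools. The 6 arrays limit the precision, detection above background was not assessed, and similar Zfp copies can share probes.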
